A study of Mus musculus with 27 samples.

Results

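The *Cyp2* and *Cyp4* families are cytochrome P450 enzymes, and 22 of their genes were measurable in the ileal epithelium of mice given TCDD (2,3,7,8-tetrachlorodibenzo-*p*-dioxin). Members were all protein coding genes whose symbol joins Cyp2 or Cyp4 to a subfamily letter and a number and that had a mean of at least 10 counts per mouse over vehicle and the 8 doses. Of 46078 genes in the count tables, 68 were protein coding genes of these families and 22 met the minimum (14 *Cyp2* and 8 *Cyp4* genes). The other 46 were below it, and 16 of them had no count in any mouse. The lowest member was *Cyp2c66* with a mean of 11.5 counts, and the nearest genes left out were *Cyp2c23* with 9.63 and *Cyp4f17* with 9.52. The choice used the level over all mice and not the response to dose.

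The samples were scrapings of the epithelial lining of the distal ileum from 27 male C57BL/6 mice killed at postnatal day 56, with 3 mice in each of 9 groups. Mice received sesame oil vehicle or TCDD (30, 10, 3, 1, 0.3, 0.1, 0.03 or 0.01 µg/kg) by gavage at 4-day intervals over 28 days, and TCDD is a ligand of the aryl hydrocarbon receptor (AhR). Mice were co-housed and fasted before tissue was taken, and the labels do not give the cage, so cage and dose cannot be told apart. Each sample is bulk RNA, in which fewer cells of a type and less RNA per cell cannot be told apart.

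Cytochrome P450 enzymes of these families sit in the endoplasmic reticulum, take electrons from P450 oxidoreductase (*Por*) and insert an oxygen atom into fatty acids, vitamins, drugs and plant compounds. Many *Cyp2* enzymes act on xenobiotics or convert arachidonic acid to epoxides, while *Cyp4* enzymes hydroxylate the end of fatty acid chains and inactivate lipid mediators such as leukotrienes. In the intestine the enterocyte carries much of this activity, and the receptors AhR, CAR (*Nr1i3*), PXR (*Nr1i2*) and PPARα (*Ppara*) are known regulators of family members.

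Each mouse had 12.26 to 17.14 M counted reads (median 14.14 M), and all 22 members passed the filter that left 16741 genes for testing. Summed levels of 10 enterocyte markers were 14000 to 16140 CPM (counts scaled to the library size) in vehicle mice with no marker at 0 in any of them, and 8 markers of pancreas and liver summed to at most 0.44 CPM there. Libraries of the vehicle to 0.3 µg/kg mice and 1 mouse at 1 µg/kg carried the first use of a sequencing index and the other 11 its second use. First and second use were assigned here by order of mouse number, which rises with dose. The index codes themselves state neither an order of use nor a batch. Index use and dose therefore overlap almost completely, apart from the mice at 1 µg/kg. At 30 µg/kg, 5 of the 6 tested genes of a list of AhR targets had risen, beside 5.42% of all genes. The list summed to 1376 to 2553 CPM there against 62.1 to 67.8 CPM in vehicle mice.

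Promoter sequences of some of the members that changed are shown first, because AhR binds the letters GCGTG, the core of the dioxin response element. RefSeq promoters (build GRCm38.p6, 250 bases before to 50 bases after the start site) were found for 19 of the 22 members. A search of both strands for GCGTG matched in 8 members. Some members had several promoters, and counted by promoter 8 of the members' 23 held it, beside 32.4% of all 32851 promoters in the table. Among the 8 members that rose at 30 µg/kg, 7 had a promoter in the table (all but *Cyp2u1*) and 4 of them held GCGTG, namely *Cyp2b10*, *Cyp2c68*, *Cyp2j9* and *Cyp4v3*. The stretches below are written 5′ to 3′ on the gene's strand, with GCGTG or its reverse complement CACGC in capitals. They are *Cyp2b10* (chr7:25897408-25897707 on the plus strand), the member with the highest fold and with matches on both strands, *Cyp4v3* (chr8:45333114-45333413 on the minus strand), *Cyp2j9* (chr4:96591436-96591735 on the minus strand), and *Cyp2j6* (chr4:96553602-96553901 on the minus strand), the neighbour of *Cyp2j9* and the member with the least spread among vehicle mice.
*Cyp2b10*: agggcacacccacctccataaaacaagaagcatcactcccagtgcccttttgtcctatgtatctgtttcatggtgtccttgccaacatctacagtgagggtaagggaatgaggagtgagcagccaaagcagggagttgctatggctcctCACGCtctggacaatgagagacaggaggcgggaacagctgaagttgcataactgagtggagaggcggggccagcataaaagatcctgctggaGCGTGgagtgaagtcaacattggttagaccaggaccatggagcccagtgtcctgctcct
*Cyp4v3*: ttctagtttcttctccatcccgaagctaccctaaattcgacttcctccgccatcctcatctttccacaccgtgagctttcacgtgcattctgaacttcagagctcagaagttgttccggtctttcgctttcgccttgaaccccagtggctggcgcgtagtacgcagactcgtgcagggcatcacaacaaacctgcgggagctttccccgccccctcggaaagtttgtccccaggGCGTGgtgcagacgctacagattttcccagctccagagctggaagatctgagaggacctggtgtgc
*Cyp2j9*: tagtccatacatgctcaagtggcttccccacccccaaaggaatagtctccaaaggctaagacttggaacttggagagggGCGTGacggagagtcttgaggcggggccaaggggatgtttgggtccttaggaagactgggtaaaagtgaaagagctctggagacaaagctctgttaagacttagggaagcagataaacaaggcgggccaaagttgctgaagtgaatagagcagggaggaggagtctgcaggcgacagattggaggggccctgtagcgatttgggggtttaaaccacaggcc
*Cyp2j6*: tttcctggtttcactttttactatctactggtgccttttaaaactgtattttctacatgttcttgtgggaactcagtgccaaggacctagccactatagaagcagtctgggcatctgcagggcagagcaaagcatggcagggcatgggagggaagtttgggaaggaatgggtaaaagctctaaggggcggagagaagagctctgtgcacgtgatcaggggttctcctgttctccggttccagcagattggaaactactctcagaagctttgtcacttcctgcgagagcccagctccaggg
The matches in *Cyp2b10* began 101 bases (CACGC) and 9 bases (GCGTG) before the start site, that in *Cyp4v3* 16 bases before it and that in *Cyp2j9* 171 bases before it. The *Cyp2j6* window held none, and neither did those of *Cyp2s1* and *Cyp2d26*, which also rose and are not printed. A match describes the letters and does not show binding.

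Levels in vehicle mice, given as CPM per kilobase of exon so that genes can be compared, spanned a wide range. *Cyp4f14*, an omega-hydroxylase of leukotriene B4 and other fatty acids, had 345.5 ± 50.1 CPM per kb (SD, n = 3) and made up 55.5% of the summed level of the 22 members. It was followed by *Cyp2c55*, an enzyme of arachidonic and linoleic acid in the gut, with 57.7 ± 16.2 CPM per kb. *Cyp4v3*, a fatty acid omega-hydroxylase, had 42.4 ± 11.0 CPM per kb. The *Cyp4f40* gene, a relative of *Cyp4f14* on the same chromosome, stood at 37.2 ± 2.25 CPM per kb, and *Cyp2c65* at 29.3 ± 4.49. Vehicle mice of *Cyp4f14* did not overlap those of any other member, whereas *Cyp2c55*, *Cyp4v3* and *Cyp4f40* overlapped in turn.

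Below these, *Cyp4f16*, *Cyp2d26*, *Cyp4b1*, *Cyp2j6* and *Cyp2s1* lay between 11.9 and 19.4 CPM per kb and *Cyp4f13* at 7.89. The next group, *Cyp2u1*, *Cyp2c68*, *Cyp2d22* and *Cyp2b10*, lay between 2.50 and 4.72. *Cyp4f18*, *Cyp4x1* and the ethanol-metabolizing *Cyp2e1* were between 1.05 and 1.32 CPM per kb. *Cyp2r1* (the vitamin D 25-hydroxylase), *Cyp2c66*, *Cyp2w1* and *Cyp2j9* were lowest, at 0.32 to 0.63 CPM per kb. In this order, 14 of the 21 neighbouring pairs had overlapping vehicle ranges. The *Cyp4a* genes, the best known PPARα-driven omega-hydroxylases of liver and kidney, were all under the minimum. Spread between vehicle mice also varied, from a coefficient of variation of 2.0% for *Cyp2j6* to 87.2% for *Cyp2e1*.

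**Figure D1:**
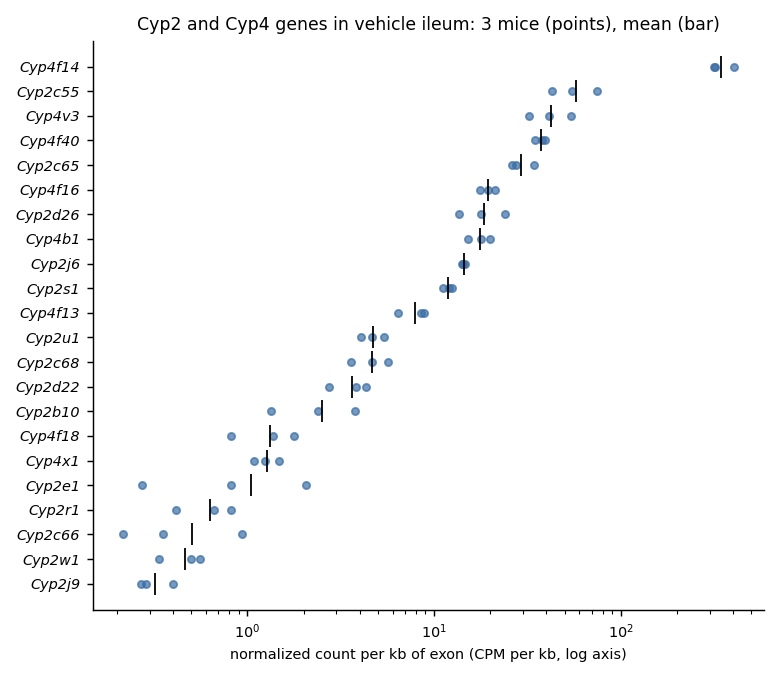
Normalized count per kilobase of exon (log axis) of the 22 members in the 3 vehicle mice, with a point per mouse and a bar at the mean. *Cyp4f14*, at 345.5 CPM per kb, stands apart from *Cyp2c55* at 57.7, and members from *Cyp2u1* downward overlap their neighbours.

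Each dose was compared with vehicle to ask at which dose the family changed. A gene was called changed where it differed at least 1.5-fold and its edgeR adjusted p did not exceed 0.05. At the 4 doses up to 0.3 µg/kg edgeR called no member and 0.0% of all genes, with 0 to 3 members per dose at an unadjusted p under 0.05 and 0 called by DESeq2. One member, *Cyp2u1*, was called at 1 µg/kg, where 0.591% of all genes were, and again 1 (*Cyp2u1*) at 3 µg/kg, where 1.11% were. At 10 µg/kg 2 members were called, *Cyp2u1* and *Cyp2j6*, against 2.53% of all genes. At 30 µg/kg 8 of 22 members (36.4%) were called, against 9.4% of all genes. All 8 were higher than vehicle, a direction in which 5.42% of all genes were called. The median log2 fold change of the 22 members at 30 µg/kg was 0.77, and that of all genes tested was 0.02. The member median was 0.16 at 1 µg/kg, 0.43 at 3 µg/kg and 0.13 at 10 µg/kg, so it did not climb steadily with dose.

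Calls at 30 µg/kg were counted by family, beside 9.4% of all genes called and 5.42% called higher. Of the 14 *Cyp2* genes 7 rose, with log2 fold changes over the 14 from -0.05 to 2.59, and of the 8 *Cyp4* genes only *Cyp4v3* rose, with log2 fold changes from -0.11 to 1.25. The *Cyp4* count was near the share of all genes. The difference between the families was not tested. Both *Cyp2j* genes rose, and none of the 5 *Cyp4f* genes did, a group too small to set apart from the share of all genes. An edgeR test for any difference among the 9 groups called 6 members (27.3%), *Cyp2j6*, *Cyp2u1*, *Cyp2s1*, *Cyp2b10*, *Cyp2c68* and *Cyp2j9*, against 9.53% of all genes.

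**Figure D2:**
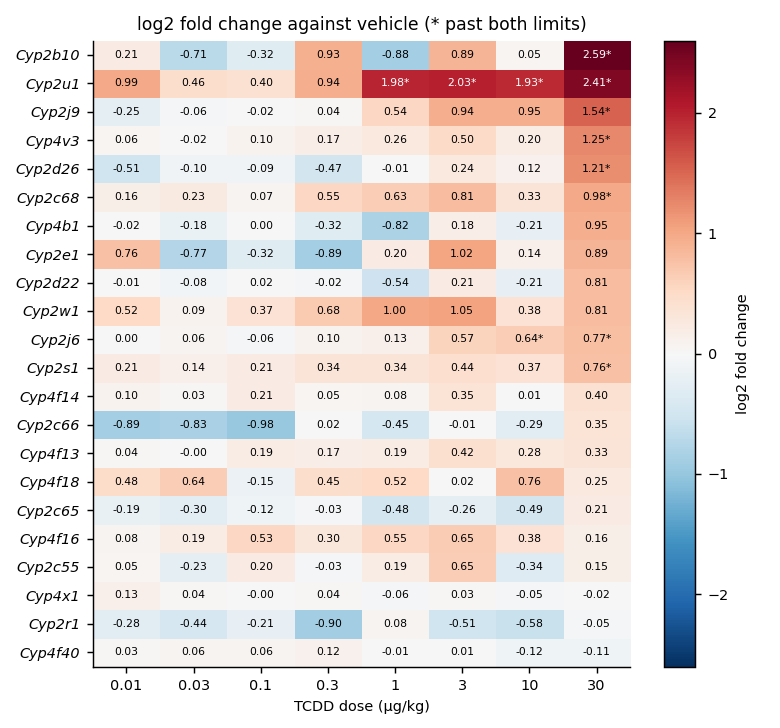
Log2 fold change against vehicle of the 22 members (rows, ordered by the value at 30 µg/kg) at the 8 TCDD doses (columns), with an asterisk where both limits were passed (1.5-fold and an adjusted p of 0.05). Asterisks appear from 1 µg/kg for *Cyp2u1*, from 10 µg/kg for *Cyp2j6* and at 30 µg/kg for 6 further members.

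The xenobiotic enzymes are described first. *Cyp2b10*, the standard target gene of CAR, lies on chromosome 7 (25897620 to 25926624, plus strand, GRCm38). Its values in the vehicle mice were 5.07, 7.92 and 2.84 CPM, and at 30 µg/kg they were 7.31, 57.5 and 30.4 CPM. Mice 67 and 68 exceeded all vehicle mice, while mouse 65 lay inside the vehicle range. Its log2 fold change was 2.59 ± 0.76 (SE, 6.02-fold, edgeR adjusted p = 0.021), with an exact permutation p of 0.2. One mouse at 0.3 µg/kg (mouse 35) also reached 23.8 CPM, beside 0.80 and 5.77 CPM in the other mice of that dose. Leaving out vehicle mouse 2 or 4, or mouse 67, ended the call (edgeR adjusted p = 0.068, 0.10 and 0.16).

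*Cyp2d26*, of the mouse subfamily related to the human drug-metabolizing CYP2D6, followed the same mice. Vehicle mice had 31.8, 43.2 and 24.4 CPM, and the 30 µg/kg group had 30.4, 110.0 and 89.0 CPM. Again mouse 65 fell within the vehicle range and mice 67 and 68 above it. Its log2 fold change was 1.21 ± 0.40 (edgeR adjusted p = 0.040, exact permutation p = 0.3), and the call ended when any of vehicle mice 2 and 4 or mice 67 and 68 was left out (edgeR adjusted p = 0.11 to 0.24). *Cyp2d22*, its relative on chromosome 15, had the same order of mice (12.6, 37.3 and 24.6 CPM against 10.7 to 16.9 in vehicle) and was not called (log2 fold change 0.81 ± 0.30, edgeR adjusted p = 0.060), though DESeq2 called it.

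Among the 4 *Cyp2c* genes, which act on xenobiotics and on arachidonic acid, only *Cyp2c68* rose. Vehicle mice had 8.03, 9.83 and 6.23 CPM and the 30 µg/kg group had 11.4, 19.7 and 16.4 CPM, with no overlap. This gave a log2 fold change of 0.98 ± 0.22 (1.97-fold, edgeR adjusted p = 0.0040, exact permutation p = 0.1, the smallest that 3 against 3 mice allow). At 3 µg/kg all mice (13.4, 13.9 and 14.8 CPM) were also above vehicle, with an edgeR adjusted p of 0.067, and DESeq2 called it there. Of its transcript, 43.3% of the 50-base windows also occur in *Cyp2c40*, *Cyp2c67* or *Cyp2c69*, so reads of these relatives may be lost or exchanged and the identity of the gene that rose is uncertain.

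The more abundant *Cyp2c55* was not called by edgeR at any dose. At 3 µg/kg its 3 mice (177.0, 196.6 and 168.0 CPM) were above all vehicle mice (109.9, 149.6 and 85.8 CPM), with a log2 fold change of 0.65 ± 0.50 (edgeR adjusted p = 0.63), and the fit of only these 6 mice called it. At the doses above, mice differed more, and the values were 21.6, 59.6 and 192.0 CPM for the 10 µg/kg mice and 51.1, 106.7 and 225.8 CPM for the 30 µg/kg mice. *Cyp2c65* had log2 fold changes of -0.49 to 0.21 over the 8 doses and *Cyp2c66* of -0.98 to 0.35, and none was called. *Cyp2e1* ranged from 0.53 to 10.3 CPM over all mice with no order by dose, the highest values being in mouse 65 at 30 µg/kg and in mouse 52 at 3 µg/kg.

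The epoxygenases of the *Cyp2j* subfamily, which turn arachidonic acid into epoxyeicosatrienoic acids, are the next group. *Cyp2j6* (chromosome 4, 96516138 to 96553661, minus strand) had 51.1, 51.6 and 53.2 CPM in vehicle mice. All 18 mice from vehicle to 1 µg/kg lay between 45.6 and 64.0 CPM. The 3 mice given 3 µg/kg had 73.7, 79.3 and 79.0 CPM, those given 10 µg/kg had 82.8, 81.5 and 79.0 CPM, and those given 30 µg/kg had 84.6, 93.7 and 88.3 CPM. All 9 mice from 3 µg/kg upward were thus above all 18 mice at lower doses. The log2 fold change was 0.57 ± 0.09 at 3 µg/kg (edgeR adjusted p = 0.0020), where the 1.49-fold difference missed only the fold minimum, 0.64 ± 0.09 at 10 µg/kg (1.56-fold, adjusted p = 0.00028) and 0.77 ± 0.09 at 30 µg/kg (1.71-fold, adjusted p = 7.81e-06). The exact permutation p was 0.1 at 10 and at 30 µg/kg. With index use as a covariate the call at 10 µg/kg ended (log2 fold change 0.49, edgeR adjusted p = 0.25). The difference of 0.20 ± 0.09 between 30 and 3 µg/kg did not pass (edgeR adjusted p = 0.35). Only 0.42% of its 50-base windows occur in another gene.

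*Cyp2j9* lies next to it (96568429 to 96591578, minus strand) at a far lower level, with 3 to 53 counts per mouse. Vehicle mice had 1.34, 0.95 and 0.90 CPM and mice at 30 µg/kg 1.43, 4.10 and 3.83 CPM. Mouse 65 was just above the highest vehicle mouse and the other mice well above. *Cyp2j9* had a log2 fold change of 1.54 ± 0.43 (2.90-fold, edgeR adjusted p = 0.015, exact permutation p = 0.1). Leaving out any of vehicle mice 3 and 4 or mice 67 and 68 ended the call, with edgeR adjusted p of 0.051 to 0.095.

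*Cyp2s1*, an extrahepatic enzyme that acts on retinoids and lipid peroxides and is a known AhR target, lies on chromosome 7 (25802475 to 25816913, minus strand), like *Cyp2b10*. Vehicle mice had 61.4, 59.3 and 54.9 CPM, and the 30 µg/kg group had 90.8, 96.4 and 109.7 CPM. No mouse at 30 µg/kg overlapped any of the 15 mice from vehicle to 0.3 µg/kg, which reached 77.3 CPM. The log2 fold change was 0.76 ± 0.13 (1.69-fold, edgeR adjusted p = 0.00047, exact permutation p = 0.1). At 3 and 10 µg/kg it was 0.44 ± 0.13 and 0.37 ± 0.13, and neither was called (edgeR adjusted p = 0.10 and 0.13).

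*Cyp2u1*, a hydroxylase of long-chain fatty acids including arachidonic acid, changed at the lowest dose and in the most doses of any member. It lies on chromosome 3 (131288441 to 131303227, minus strand). The vehicle values were 24.5, 28.5 and 21.2 CPM. The 1 µg/kg group had 117.1, 81.9 and 93.2 CPM, and the 3 µg/kg group 104.9, 95.8 and 102.3 CPM. The values were 116.0, 72.8 and 94.6 CPM for the 10 µg/kg mice, and 91.0, 171.8 and 132.5 CPM for the 30 µg/kg mice. Every mouse from 1 µg/kg upward exceeded all vehicle mice. The log2 fold change was 1.98 ± 0.30 at 1 µg/kg (edgeR adjusted p = 0.0027), 2.03 ± 0.30 at 3 µg/kg (adjusted p = 0.00079), 1.93 ± 0.30 at 10 µg/kg (adjusted p = 0.00044) and 2.41 ± 0.30 at 30 µg/kg (5.33-fold, adjusted p = 9.86e-06). The exact permutation p was 0.1 at each of these doses. With index use as a covariate the call at 3 µg/kg ended (log2 fold change 2.45, edgeR adjusted p = 0.079). The values at 1, 3 and 10 µg/kg differed from each other by less than their SE, and 30 against 3 µg/kg differed by 0.38 ± 0.28 (edgeR adjusted p = 0.60).

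At the lower doses *Cyp2u1* was not called by edgeR. All mice at 0.01 µg/kg, at 0.1 µg/kg (30.9, 30.3 and 36.6 CPM) and at 0.3 µg/kg (37.2, 62.7 and 42.8 CPM) were still above the highest vehicle mouse. At 0.03 µg/kg (27.7 to 45.5 CPM) 2 of the 3 mice were. The log2 fold change was 0.99 ± 0.30 at 0.01 µg/kg and 0.46 ± 0.30 at 0.03 µg/kg. It was 0.40 ± 0.30 at 0.1 µg/kg (edgeR adjusted p = 0.90) and 0.94 ± 0.29 at 0.3 µg/kg (edgeR adjusted p = 0.40), so it did not climb steadily over these doses. At 0.01 µg/kg mouse 14 had 80.6 CPM of *Cyp2u1* beside 28.9 and 37.3 CPM, and at 0.3 µg/kg the 62.7 CPM was in mouse 35. Of the 12 mice from 1 µg/kg upward, 11 exceeded all 15 mice at lower doses, and the 12th (72.8 CPM) was below mouse 14. The mouse at 1 µg/kg with first index use, mouse 41, had 117.1 CPM, the highest of its dose.

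*Cyp2u1* was read beside a clock score, the mean log2 CPM of *Arntl*, *Npas2*, *Clock* and *Nfil3* minus that of *Dbp*, *Tef*, *Hlf*, *Nr1d1*, *Nr1d2*, *Per2*, *Per3* and *Ciart*. This score was 4.04 to 4.38 in vehicle mice and 3.93 and 3.94 at 0.01 µg/kg in all mice but mouse 14, where it was -0.16. At 0.3 µg/kg it was 2.24 to 3.41, with the lowest value in mouse 35, and from 1 µg/kg upward it was -1.64 to 0.95. Mouse 14 was thus apart from the other mice of its dose in both measures, while the score of mouse 35 was close to that of mouse 36 (2.56). With the score as a covariate, edgeR called no member at any dose (the *Cyp2u1* log2 fold change at 30 µg/kg became 0.80, adjusted p = 0.56, and that of *Cyp2j6* 0.46, adjusted p = 0.43). Of all 16741 genes, 0, 0, 4 and 11 were called with it at 1, 3, 10 and 30 µg/kg, so the members' 0 is not particular to them. The score and dose overlap so strongly that their parts cannot be told apart. In the transcript of *Cyp2u1*, 12.3% of 50-base windows occur elsewhere in annotated transcripts, and an exon overlaps 4930534D22Rik on the opposite strand.

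**Figure D3:**
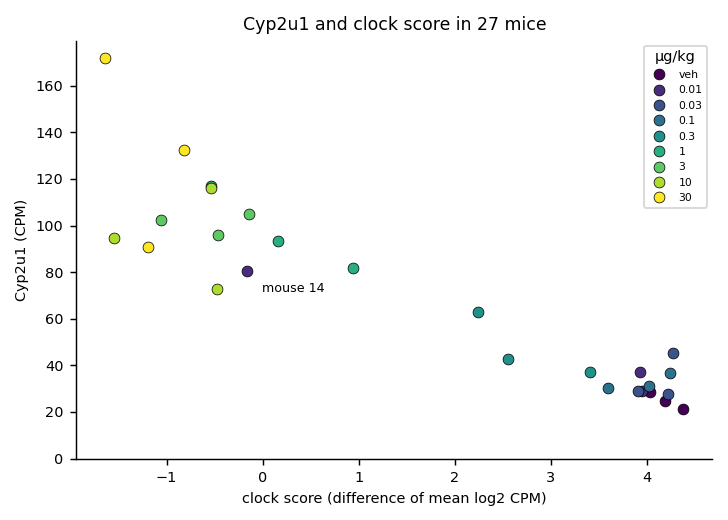
*Cyp2u1* (CPM) against the clock score (difference of mean log2 CPM) in each of the 27 mice, coloured by dose. Mouse 14, given 0.01 µg/kg, sits at 80.6 CPM and a score of -0.16, among the mice of 1 µg/kg and above, while the vehicle mice sit at 21.2 to 28.5 CPM and scores of 4.04 to 4.38.

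The omega-hydroxylases of the *Cyp4f* subfamily, which inactivate leukotrienes, were not called by edgeR at any dose with the settings used throughout. *Cyp4f14* had 762.7, 975.9 and 768.9 CPM in vehicle mice and 603.7, 1416 and 1278 CPM at 30 µg/kg. Mouse 65 was below all vehicle mice and the other mice were above them (log2 fold change 0.40 ± 0.21, edgeR adjusted p = 0.19). *Cyp4f40* was the steadiest of the abundant members, with 72.3 to 109.5 CPM in all 27 mice and log2 fold changes of -0.12 to 0.12. *Cyp4f16* was above vehicle in all mice at 3 µg/kg (92.3, 94.4 and 94.0 CPM against 54.4, 64.8 and 59.7 CPM, log2 fold change 0.65 ± 0.19, edgeR adjusted p = 0.084), and was called there by DESeq2, by edgeR with no filter on low counts and in the fit of the 6 mice compared. It stood at 48.3, 84.7 and 66.4 CPM at 30 µg/kg, where the range overlapped that of vehicle. *Cyp4f13* and *Cyp4f18* had log2 fold changes at 30 µg/kg of 0.33 and 0.25.

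*Cyp4v3* (chromosome 8, 45304944 to 45333216, minus strand), whose human counterpart CYP4V2 is mutated in a retinal dystrophy, was the 1 *Cyp4* gene that rose. Vehicle mice had 156.3, 206.0 and 122.6 CPM and the mice at 30 µg/kg 150.1, 536.7 and 468.5 CPM. Mouse 65 lay inside the vehicle range, and mice 67 and 68 were above every mouse of the other doses. The log2 fold change was 1.25 ± 0.31 (2.38-fold, edgeR adjusted p = 0.0079, exact permutation p = 0.3). Leaving out vehicle mouse 4 or mouse 67 ended the call (edgeR adjusted p = 0.058 and 0.079). Reads in exons shared with Gm45753 on the same strand are of uncertain origin.

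*Cyp4b1*, which hydroxylates fatty acids and bioactivates some furans, had 40.5, 44.8 and 34.3 CPM in vehicle mice and 24.5, 130.6 and 76.2 CPM at 30 µg/kg. It showed the same order of mice and was not called (log2 fold change 0.95 ± 0.44, edgeR adjusted p = 0.14). At 1 µg/kg its values were 38.9, 11.4 and 16.6 CPM, at or below the vehicle range (log2 fold change -0.82 ± 0.45, edgeR adjusted p = 0.42). *Cyp4x1*, *Cyp2r1* and *Cyp2w1*, the remaining members, were not called at any dose, with log2 fold changes at 30 µg/kg of -0.02, -0.05 and 0.81.

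**Figure D4:**
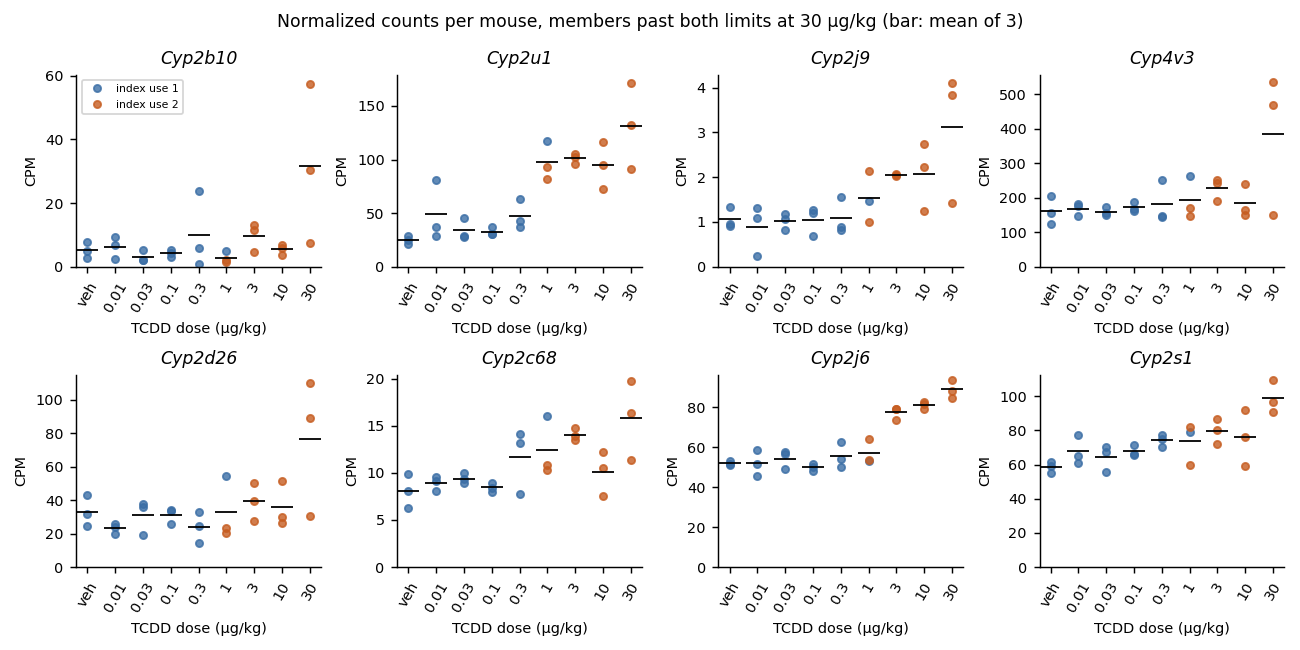
Normalized counts (CPM, linear axes from 0) in each of the 27 mice by TCDD dose (µg/kg, veh for vehicle) for the 8 members past both limits at 30 µg/kg, coloured by first or second use of the sequencing index, with a bar at each mean. *Cyp2j6* is higher in all 9 mice from 3 µg/kg than in every mouse at lower doses. *Cyp2u1* is above all vehicle mice from 1 µg/kg, and *Cyp2b10*, *Cyp4v3* and *Cyp2d26* are high in 2 of 3 mice at 30 µg/kg.

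The 3 mice at 30 µg/kg differed for some members and not for others. Mouse 65 stood at 0.72 to 1.39 of the vehicle mean for *Cyp4f14*, *Cyp4v3*, *Cyp2d26* and *Cyp2b10*, where mouse 67 stood at 1.69 to 10.9. For *Cyp2j6* the same mice stood at 1.63 and 1.80, and for *Cyp2s1* at 1.55 and 1.65. Levels of cell and region markers differed between these mice too. The enterocyte list summed to 13140 CPM in mouse 65 and to 27800 and 22450 CPM in mice 67 and 68, against 14000 to 16140 CPM in vehicle mice, and 1 of its 10 genes was called (higher). A list of 10 genes typical of the proximal small intestine summed to 10620 CPM in mouse 65 and to 23910 and 22300 CPM in the others, against 11710 to 13390 CPM in vehicle mice, and 4 of its genes were called (all higher). Smooth muscle markers summed to 379.9 CPM in mouse 65 and to 89.9 and 43.5 CPM in mice 67 and 68, against 31.0 to 125.5 CPM in vehicle mice, and none of the 8 was called. No gene of these 3 lists was at 0 in any mouse at 30 µg/kg. For the enteroendocrine and distal small intestine lists the 3 mice lay closer together. Enteroendocrine markers summed to 274.6 to 335.1 CPM against 148.4 to 167.5 CPM in vehicle mice (5 of 8 called higher), and distal small intestine markers to 4747 to 4967 CPM against 6736 to 7374 CPM (3 of 8 called lower and 1 higher). Stem and cycling cell markers had 3 of 7 genes called lower, with sums of 489.5 CPM in mouse 65 and of 230.3 and 283.9 CPM in mice 67 and 68, against 436.5 to 618.1 CPM. Immune markers summed to 1437 to 2276 CPM against 2362 to 2623 CPM in vehicle mice (1 of 11 tested genes called lower). Goblet and Paneth cell markers summed to 31010 to 35210 CPM against 23890 to 27110 CPM (none of 10 called). Beside these counts, 9.4% of all genes were called at 30 µg/kg, and 5.42% were called higher. The enterocyte count was near the share of all genes. The part of these marker levels in the members' values was not tested.

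Without mouse 65, edgeR called 11 members at 30 µg/kg, the 8 above with *Cyp2d22*, *Cyp4b1* and *Cyp4f14*, and 2508 of 17063 genes in all. Without vehicle mouse 4, or without mouse 67, it called 4, and in both cases these were *Cyp2c68*, *Cyp2j6*, *Cyp2s1* and *Cyp2u1*, while 993 of 17075 and 878 of 17064 genes were called in all. A fit of only the 6 mice compared called 3, *Cyp2j6*, *Cyp2s1* and *Cyp2u1*, among 667 of 15277 genes.

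**Figure D5:**
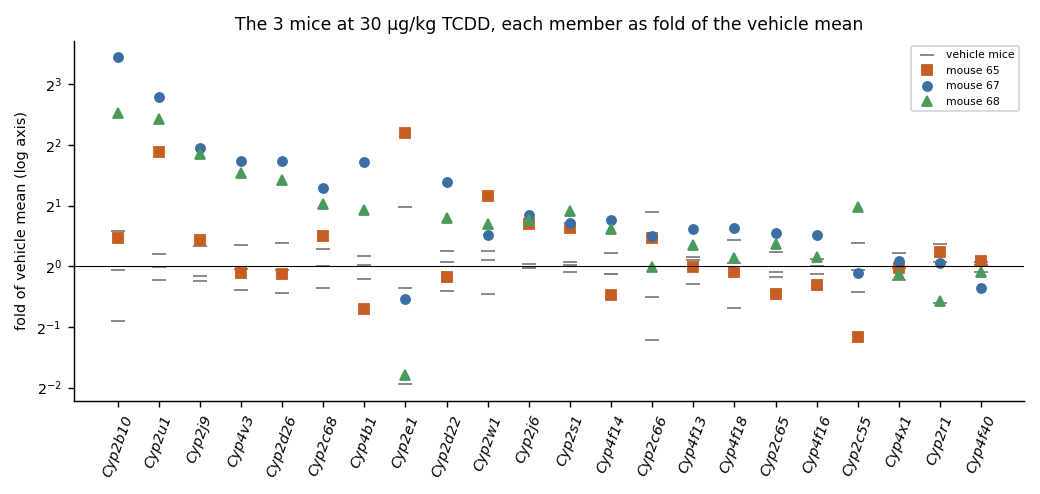
Each member in the 3 mice at 30 µg/kg as fold of the vehicle mean (log axis), ordered by log2 fold change, with grey dashes for the vehicle mice. Mouse 65 lies near 1 for *Cyp4v3* and *Cyp2d26*, where mouse 67 lies above 3, and all 3 mice lie together for *Cyp2j6* and *Cyp2s1*.

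Because the mice at 3 and 30 µg/kg were all of second index use, these doses were also compared with each other. No member was called (0.89% of all genes were), 7 had an unadjusted p under 0.05 and DESeq2 also called 0. The 22 members had a median log2 difference of 0.28 against 0.01 for all genes. The largest differences were 1.70 ± 0.72 for *Cyp2b10* (edgeR adjusted p = 0.29) and 0.96 ± 0.40 for *Cyp2d26* (adjusted p = 0.28). Without mouse 65, edgeR called 4 members, *Cyp2c65*, *Cyp2d22*, *Cyp2d26* and *Cyp4v3*, among 694 of 17063 genes. With index use as a covariate in the comparison with vehicle, 6 members were called at 30 µg/kg and *Cyp2b10* and *Cyp2j9* were not (edgeR adjusted p = 0.13 and 0.36), while 482 of 16741 genes were called in all. The covariate also ended the calls of *Cyp2j6* at 10 µg/kg and of *Cyp2u1* at 3 µg/kg, as given beside them.

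Genes that work with the members were counted from lists. Of 9 redox partners and heme and epoxide enzymes, 2 rose at 30 µg/kg and none fell, beside 9.4% of all genes changed. These were *Por*, which passes electrons to every microsomal P450, at 1.98-fold (log2 fold change 0.98 ± 0.20, edgeR adjusted p = 0.0014), and *Ephx2*, soluble epoxide hydrolase, which opens the epoxides that *Cyp2c* and *Cyp2j* enzymes make, at 3.31-fold (log2 fold change 1.73 ± 0.32, edgeR adjusted p = 0.00078). Of 8 receptors, 2 rose and none fell, *Nr1i3* at 2.93-fold (edgeR adjusted p = 0.021) and *Ppara* at 1.88-fold (edgeR adjusted p = 1.70e-05).

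Known targets of these receptors other than the members were also counted. Of 12 PPARα targets 6 rose at 30 µg/kg and none fell, with a median log2 fold change of 0.89, and of 12 CAR and PXR targets 4 rose and none fell, with a median of 0.43. Of all genes, 5.42% were called higher at this dose. The PPARα list summed to 1022 CPM in mouse 65, inside the vehicle range of 973.6 to 1178 CPM, and to 1772 and 1532 CPM in mice 67 and 68. The CAR and PXR list summed to 2399, 5629 and 4236 CPM in mice 65, 67 and 68, against 1935 to 2308 CPM in vehicle mice. The largest change of the first list was 7.82-fold for *Angptl4*, an inhibitor of lipoprotein lipase, and that of the second 5.09-fold for *Abcc2*, an export pump of conjugates. The AhR list had a median of 3.29 over its 6 tested genes, and *Cyp1a1*, the classic AhR target, made up most of its summed level at 30 µg/kg, with 1741 ± 621 CPM there against 0.12 ± 0.11 CPM in the vehicle group (SD over 3 mice each). *Cyp1b1* was 64.5-fold higher and *Ahrr*, the AhR repressor, 29.8-fold.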

How the data were processed

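Ileal RNA-Seq of 27 mice was analysed from counts that the authors deposited as 1 table of reads per Ensembl gene per mouse, without normalization. According to the methods and the submitters' processing notes, reads were checked with FastQC 0.11.3, trimmed with Trimmomatic 0.33, aligned to GRCm38 with TopHat2 2.1.0, converted with SAMtools 1.2.0 and counted with HTSeq 0.6.1, whose options are not given in the sources used here. Reads recorded as matching no feature were 44.48% to 49.52% of the reads aligned to a single place in each mouse and stayed out of library sizes. HTSeq leaves out reads that align to several places or overlap several genes, and whether strand was used is not given, so overlapping genes on either strand are uncertain. Sequencing depth was 12.26 to 17.14 M counted reads per mouse. At this depth a member with few counts (*Cyp2j9*, 3 to 53 per mouse) carries a larger sampling error than *Cyp4f14*.

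Symbols and exon lengths came from GENCODE M21. Counts were fitted with edgeR 4.0.16 in R 4.3.3 (TMM, filterByExpr with a minimum count of 10 and total of 15, quasi-likelihood F tests, 9 groups, no covariate), with Benjamini-Hochberg adjustment over 16741 genes. Calls needed a 1.5-fold difference, the study's limit, and an adjusted p not above 0.05, which took the place of the study's probability statistic, since that could not be recomputed. SE is the log2 fold change divided by the square root of F. CPM used TMM library sizes, divided by exon length where levels of genes are compared. Exact permutation tests were two-sided on mean log2 CPM, with a small constant added to each CPM before the log. The 27 replicate pairs were compared by chi-square over genes, and none was within sampling noise (6.99 to 74.26 per degree of freedom). The mice of a group are separate animals by their numbers and by the study's methods. The steps were tested on simulated data.

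Named genes are the members, and genes of the partner and receptor target lists past both limits at 30 µg/kg, up to 5 a list by size. Members past the limits at any dose and the 5 with the highest vehicle level have full values. Single mice and remarks on other members were chosen after their values were seen. Members and lists were chosen with earlier results of these data known. Alternatives were DESeq2 1.42.0, other normalizations, filters and fold limits, covariates for index use and clock score, the 6 mice alone and leaving out each mouse. Figures were drawn with matplotlib 3.10.9 in Python 3.11.15.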

Additional observations from a re-analysis of the deposited data

How the results depend on the processing

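Numbers of members called moved by more than 1.5 times under these settings. With no filter on low counts, 3 members were called at 3 µg/kg and 11 among the 9 groups, and DESeq2 gave 3 and 10. With no fold change minimum, 2 were called at 3 µg/kg. With library index use as a covariate, 0 were called at 3 µg/kg, 1 at 10 µg/kg and 1 among the groups. With the clock score as a covariate, 0 were called at 1, 3, 10 and 30 µg/kg and among the groups. With only the 6 mice compared, 4 were called at 3 µg/kg and 3 at 30 µg/kg. Leaving out single mice gave 1 to 2 members at 3 µg/kg, 4 to 11 at 30 µg/kg and 0 to 4 for 30 against 3 µg/kg. Leaving mouse 65 out of the whole fit, a setting chosen after seeing the data, gave 12 among the groups. The causes were not tested, and the fits that leave mice out also hold fewer mice.

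No log2 fold change of a called member turned its sign under any setting run. *Cyp2u1*, *Cyp2j6*, *Cyp2s1* and *Cyp2c68* were called at 30 µg/kg whichever mouse was left out, and *Cyp2b10*, *Cyp2d26*, *Cyp2j9* and *Cyp4v3* were not. Library size alone as the scale also ended the call of *Cyp2d26* (adjusted p = 0.069 by edgeR). A minimum of 10 counts in every mouse left *Cyp2j9* untested. Leaving out mouse 14, chosen after seeing the data, left 8 members called at 30 µg/kg and 6 among the groups. No paired analysis was possible because the labels number each mouse separately and pair none across doses. With 3 mice a group, no exact permutation p can fall below 0.1.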

Other observations

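Chromosome 17 holds 4 of the members, *Cyp4f13*, *Cyp4f14*, *Cyp4f16* and *Cyp4f40*, and together they include the most abundant member and the steadiest abundant one. Their vehicle levels ran from 7.89 to 345.5 CPM per kb, and their log2 fold changes at 30 µg/kg were 0.33, 0.40, 0.16 and -0.11. *Cyp4f16* shared 17.4% of its 50-base windows with other *Cyp4f* genes, *Cyp4f14* 2.39%, *Cyp4f40* 1.60% and *Cyp4f13* 1.11%. One mouse at 0.1 µg/kg, mouse 26, had 125.2 CPM of *Cyp4f16*, above every other mouse, beside 72.4 and 60.9 CPM at the same dose.

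*Cyp2w1*, an orphan enzyme known from fetal colon and colon tumours, was above all vehicle mice in all 3 mice at 3 µg/kg (1.57, 1.12 and 1.75 CPM) and at 30 µg/kg (1.58, 1.01 and 1.14 CPM), against 0.85, 0.51 and 0.76 CPM in vehicle mice, and was not called (edgeR adjusted p = 0.25 and 0.21). It had 4 to 32 counts per mouse.

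In mouse 52 at 3 µg/kg the 8 pancreas and liver markers summed to 41.0 CPM, where no other mouse was above 2.28 CPM. Nearly all of this came from the pancreas genes, and no liver gene of the list exceeded 0.13 CPM at that dose. Mouse 52 had 10.3 CPM of *Cyp2e1*, beside 2.59 and 0.84 CPM at the same dose. Mouse 65 at 30 µg/kg also had 10.3 CPM of *Cyp2e1*, with a list sum of 0.64 CPM. The part of these markers in the *Cyp2e1* values was not tested.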
